A study of Mus musculus with 10 samples.

Results

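The genes described here are 30 enzymes of mitochondrial fatty acid oxidation and ketone body use, read from 10 libraries of mouse cortex. They were chosen by name, as listed genes of fatty acid activation, beta-oxidation, electron transfer and ketone metabolism, out of 24972 genes in the tables and 14378 genes with enough reads to be tested. All 30 were found and all 30 passed the count filter. The animals were 5 Atad3 nKO mice, compared with 5 littermates labelled Atad3 control. All were C57BL/6 males aged 2.5 months, and each library was the total RNA of the cortex of 1 mouse, dissected after perfusion with cold saline. The labels do not spell out nKO. The deleted exons, the line that drives the deletion and the cells that carry it are not given in the sources used here.

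Beta-oxidation shortens fatty acids inside mitochondria. Long fatty acids are first joined to coenzyme A, carried through the inner membrane as carnitine esters, and then cut stepwise by dehydrogenation, hydration, a further dehydrogenation and thiolysis. The electrons of the first step pass through the electron transfer flavoprotein to ubiquinone in the inner membrane, the membrane that ATAD3A, the ATPase targeted in these mice, is anchored in. Ketone bodies, which the liver makes from fatty acids during fasting and which the milk-fed pup also relies on, are a major alternative fuel of the brain. In brain, beta-oxidation is generally assigned more to astrocytes than to neurons, whereas ketone bodies are used by both.

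The libraries held about 14812600 to 19097800 estimated reads in nKO and 16768400 to 24161400 in control cortex. The targeted gene, Atad3a, stood at 8.95 to 14.4 CPM (the read count scaled for library depth) in nKO and 22.2 to 26.6 CPM in control libraries, a log2 fold change of -1.04 (SE 0.12; edgeR quasi-likelihood test, adjusted p = 0.00634). Over all genes edgeR called 2 at a 5% false discovery rate, which is 0.0139% of those tested. A principal component analysis placed nKO 4 (29.8) and control 1 (-46.8) at opposite extremes of its first axis (33.6% of variance). Each library pools RNA from every cell type present in the cortex, so fewer cells of a type and less RNA per cell cannot be told apart.

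The 30 genes covered a wide range of levels. Expressed as TPM, which corrects for transcript length, the member at the top was Oxct1, the enzyme that commits ketone bodies to oxidation, with 353 ± 16.003 TPM in nKO and 369 ± 49.1 TPM in control cortex (SD, n = 5 each). It lay at the 97.0th percentile of the tested genes. The brain acyl-CoA thioesterase Acot7 (256 ± 11.4 TPM in nKO, 262 ± 17.2 TPM in control) and the acyl-CoA synthetase Acsl3 (220.4 ± 7.95 TPM in nKO, 215 ± 27.0 TPM in control) came next. Every library of Oxct1 (289 to 420.1 TPM over the 10 libraries) lay above every library of Acot7 (236 to 278 TPM), while Acot7 and Acsl3 (169.8 to 236 TPM) met at the edges of their ranges. At the low end were Cpt2 (5.22 ± 1.01 TPM in nKO, 4.38 ± 1.04 TPM in control), which releases fatty acids from carnitine inside the mitochondrion, and the short-chain dehydrogenase Acads (6.70 ± 1.15 TPM in nKO, 6.40 ± 0.827 TPM in control). Of the 30 genes, 23 lay above the median level of the tested genes.

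By role, the 5 acyl-CoA synthetases summed to 657 ± 19.6 TPM in nKO and 628 ± 51.9 TPM in control cortex. The 3 ketone body enzymes summed to 469 ± 18.0 TPM in nKO and 487 ± 54.0 TPM in control cortex. The 3 thioesterases summed to 417 ± 16.1 TPM in nKO and 434 ± 11.8 TPM in control cortex. The enzymes that cut the chain had smaller sums. Hydratase, hydroxyacyl-CoA dehydrogenase and thiolase enzymes summed to 274 ± 13.1 TPM in nKO and 299 ± 20.6 TPM in control, and the 5 acyl-CoA dehydrogenases to 196 ± 7.64 TPM in nKO and 193 ± 19.3 TPM in control. The 3 carnitine palmitoyltransferases came to 85.6 ± 2.34 TPM in nKO and 84.9 ± 5.50 TPM in control (SD, n = 5 each throughout). Most of this was Cpt1c (59.6 TPM in nKO, 60.3 TPM in control), an isoform with little catalytic activity, so the sum overstates the entry step for long chains. In both genotypes the listed synthetases, thioesterases and ketone body enzymes thus each summed to more transcript than the listed carnitine palmitoyltransferases. The sums compared here run over 5 synthetases and over 3 genes each for the thioesterases, ketone body enzymes and carnitine palmitoyltransferases. The sums of the 2 classes that cut the chain run over 5 genes each.

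**Figure D1:**
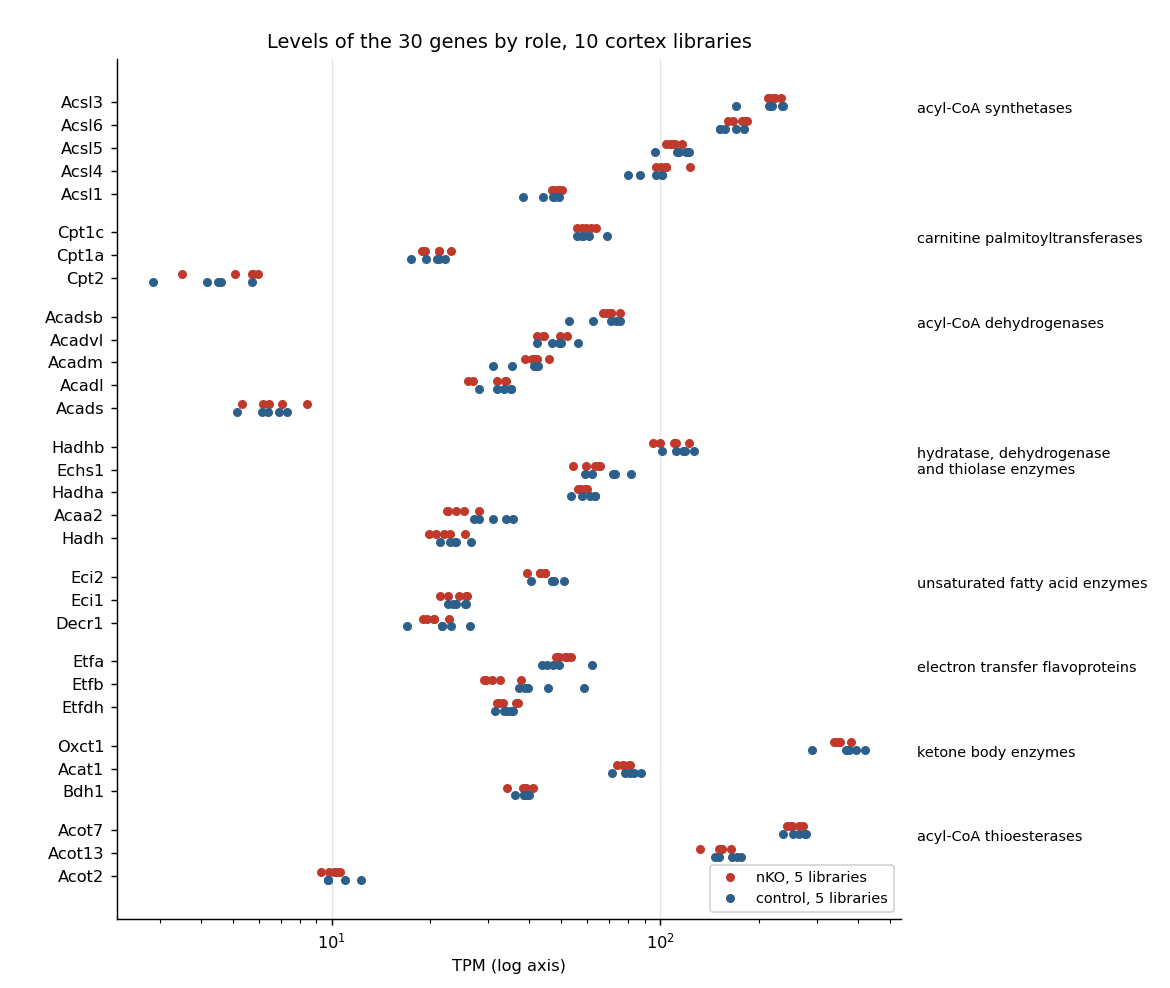
TPM (log axis) of the 30 genes in each of 5 nKO (red) and 5 control (blue) libraries, grouped by role and ordered within a role by mean level. Levels run from Cpt2 and Acads, near 5 TPM, to Oxct1 at 353 TPM in nKO and 369 TPM in control, and the 2 genotypes overlap in every gene.

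None of the 30 genes differed between nKO and control cortex at a 5% false discovery rate. The edgeR adjusted p ran from 0.820 to 0.986, and the count was also 0 with DESeq2 and with limma-voom. At an unadjusted p under 0.05 there were 3 members (10%), against 5.65% of all tested genes. These were the electron transfer flavoprotein subunit Etfb, the thiolase Acaa2 and the enoyl-CoA hydratase Echs1, all lower in nKO. Of all tested genes 2.29% were lower and 3.36% higher at that threshold, and 0 members were higher. In 0 of the 30 genes were the nKO and control libraries free of overlap in CPM, against 1.38% of all tested genes, or 0.675% with nKO lower.

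In direction, 22 of the 30 genes had a log2 fold change below 0 and 8 above it, against 52.2% of all tested genes below 0. The median log2 fold change was -0.09 for the 30 genes and -0.01 for all tested genes, and single genes ran from -0.58 to 0.20. The mean log2 CPM of the 30 genes was 5.17, 5.14, 5.20, 5.15 and 5.19 in nKO 1 to 5, against 5.26, 5.21, 5.29, 5.25 and 5.25 in control 1 to 5. Every nKO library was thus below every control library on this mean, which was 5.17 ± 0.02 in nKO and 5.25 ± 0.03 in control (SD, n = 5 each). No test is given for this mean, since the list was chosen with results of these data known. The separation was seen in CPM. In TPM 19 of the 30 genes had a lower mean in nKO, and the genotypes overlapped in the sum of every role. TPM was not rescaled by the TMM factors that enter CPM. In the alternatives other than single left-out libraries, effective length offsets among them, 22 to 24 members were lower. All 30 genes summed to 2303 ± 38.1 TPM in nKO and 2347 ± 155 TPM in control (SD, n = 5 each).

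The precision of these values was better than for the typical gene. The median SE of the log2 fold change was 0.09 for the 30 genes and 0.12 for all tested genes. For 26 of the 30 genes the 95% interval lay within 1.5-fold of no change in both directions, against 75.7% of all tested genes. The exceptions were Etfb and Acaa2 on the lower side, Acads on the lower side and Cpt2 on the higher side. Changes smaller than 1.5-fold remain within the intervals of most members.

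**Figure D2:**
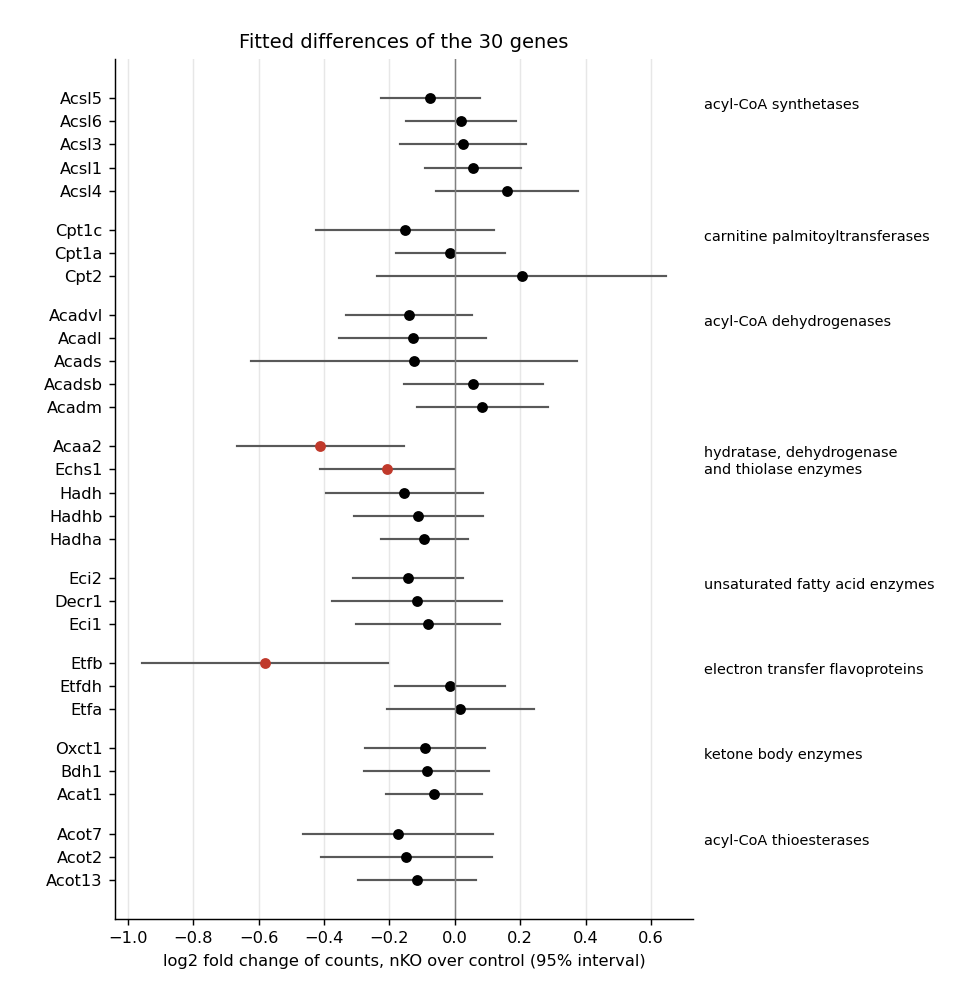
Log2 fold change of counts, nKO over control, with its 95% interval from edgeR for the 30 genes by role; red points mark an unadjusted p under 0.05. Etfb, Acaa2 and Echs1 are the red points at -0.58, -0.41 and -0.21, and no gene passed 5% after adjustment over all tested genes.

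Transcript length moved with the fold change. Across all tested genes Spearman's rho between transcript length and log2 fold change was 0.30, and across the 30 genes, which share the same libraries, it was 0.58. The members had a median length of 2240 bases, against 2994 bases for all tested genes. Of the 10 members in the shortest length class (up to 1904 bases, of 4 classes of equal size), 9 were lower, with a median log2 fold change of -0.15, where all genes of that class had a median of -0.07. Of the 11 members in the second class, 8 were lower, with a median of -0.11 against -0.03 for all genes of that class. Of the 8 members in the third class, 5 were lower, with a median of -0.04 against 0.0016 for all genes of that class. The 1 member of the longest class stood at 0.16, against a median of 0.05 for all genes of that class. The part of length in the members' direction was not tested.

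The highest and lowest libraries of the members are set here beside those of all tested genes. Control 3 was the highest of the 10 libraries in 12 of the 30 genes, and the lowest in 1, against 17.9% and 18.6% of all tested genes. Control 1 was the highest in 7 and the lowest in 8, against 25.6% and 19.4% of all tested genes. The library nKO 4 was the highest in 3 and the lowest in 7, against 15.5% and 19.7% of all tested genes. For control 1 and nKO 4 the members were thus not far from the shares of all tested genes. Control 3 departed from those shares, being the highest library more often and the lowest less often. With control 1 and nKO 4 both left out, the members' median log2 fold change was -0.07 and 22 of 30 were lower. With any 1 library left out, control 3 included, the median was -0.10 to -0.07 and 20 to 25 were lower.

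**Figure D3:**
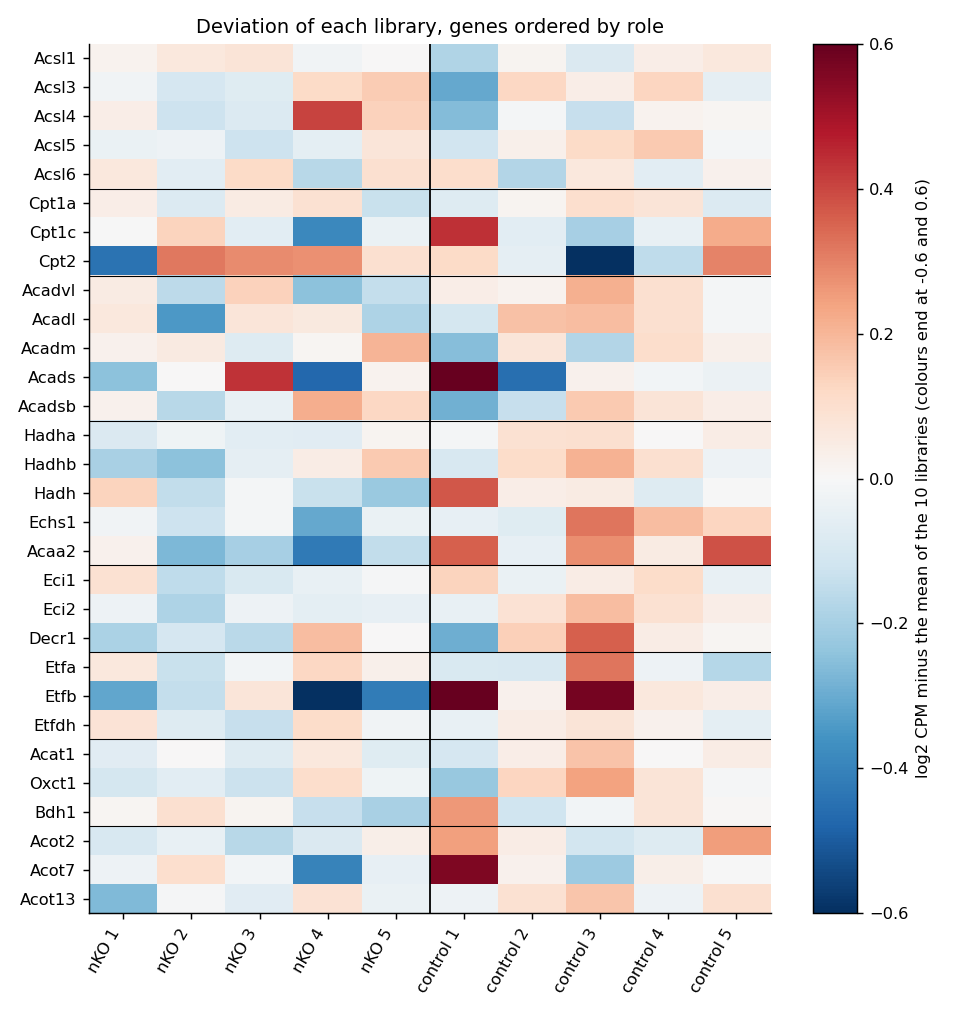
Log2 CPM of each library minus the mean of the 10 libraries, for the 30 genes ordered by role, nKO libraries on the left and controls on the right of the black line. Control 1 is low in Acsl3, Acsl4 and Oxct1 and high in Acot7, Cpt1c and Etfb, and nKO 4 shows the reverse in Acsl4, Acot7, Cpt1c and Etfb. Control 1 is the highest library in 7 and the lowest in 8 of the 30 genes (25.6% and 19.4% of all tested genes). For nKO 4 these counts are 3 and 7 (15.5% and 19.7% of all tested genes).

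Astrocyte markers were examined beside the members, since much of the pathway is assigned to these cells. Of 10 markers 8 were lower and 2 higher in nKO, with a median log2 fold change of -0.06, and 0 passed 5%. Their summed level was 5880 to 6703 CPM in nKO and 5402 to 5864 CPM in control libraries, a sum carried mostly by the glutamate transporter Slc1a2 (4013 to 4878 CPM in nKO, 3403 to 4013 CPM in control). Excitatory neuron markers summed to 2206 to 2620 CPM in nKO and 1850 to 2923 CPM in control, with 4 of 10 lower, so these cells of the labelled tissue were represented in every library. Oligodendrocyte markers summed to 1709 to 2050 CPM in nKO and 1681 to 2102 CPM in control, with 5 of 10 lower, and microglia markers to 339.6 to 378 CPM in nKO and 352 to 381 CPM in control, with 7 of 10 lower. The remaining marker lists were inhibitory neurons (4 of 10 lower), oligodendrocyte precursors (4 of 8), endothelial cells (4 of 10) and mural cells (2 of 8). Few choroid plexus and blood genes could be tested: 2 of 6 (1 lower) and 4 of 7 (3 lower). No marker passed 5%, and the part of cell makeup in the members' values was not tested.

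Fatty acid activation was represented by 5 long-chain acyl-CoA synthetases. Acsl3, which serves lipid droplets and the endoplasmic reticulum, had 298, 282, 288, 328 and 336 CPM in nKO 1 to 5, against 244, 329.6, 311, 331 and 291 CPM in control 1 to 5. Control 1 was the low library and the groups overlapped almost entirely (log2 fold change 0.02, SE 0.09). Acsl4, which prefers arachidonic acid and supplies the phospholipids that ferroptosis consumes, had 191, 170.4, 176, 247 and 205 CPM in nKO 1 to 5, against 155, 184, 169, 189 and 188 CPM in control 1 to 5. Its log2 fold change of 0.16 (SE 0.10, 95% interval -0.06 to 0.38) rested partly on nKO 4, the highest library, and came to 0.06 without it and to 0.01 without nKO 4 and control 1. Acsl6, the synthetase that brain uses to retain docosahexaenoic acid, stood at 174 ± 9.78 TPM in nKO and 162 ± 12.1 TPM in control. Its fitted log2 fold change of counts was 0.02 (SE 0.08). Acsl1 and Acsl5 had log2 fold changes of 0.06 and -0.07 (SE 0.07 each). In this fit 4 of these 5 genes lay above 0 and 1 below, and none at an unadjusted p under 0.05. The sign of Acsl3 turned without control 1 (-0.04), and that of Acsl6 without control 2 (-0.02).

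The carnitine palmitoyltransferases carry long chains into the mitochondrion. Cpt1a, the malonyl-CoA-regulated outer membrane enzyme, had 34.4, 31.6, 34.5, 35.6 and 30.5 CPM in nKO 1 to 5, against 31.6, 33.8, 35.9, 35.3 and 31.6 CPM in control 1 to 5. The groups covered nearly the same range, with a log2 fold change of -0.01 (SE 0.08, 95% interval -0.18 to 0.15). Cpt1c, the neuronal isoform that sits in the endoplasmic reticulum and has little catalytic activity, had 48.0, 52.7, 45.9, 36.7 and 46.8 CPM in nKO 1 to 5, against 65.2, 46.0, 41.8, 46.6 and 56.1 CPM in control 1 to 5. Its log2 fold change of -0.15 (SE 0.13) came to 0.01 without control 1 and nKO 4, which were its highest and lowest libraries in CPM. In TPM the highest was control 5 (68.6) and the lowest control 3 (55.8). Per length, Cpt1c was present at 2.90 ± 0.377 times the level of Cpt1a in nKO and 3.01 ± 0.428 times in control (SD, n = 5 each, ratio of TPM), so the non-oxidative isoform was the more abundant one in both genotypes. Cpt2 had 47.3 to 92.5 reads per library and a wide interval, with a log2 fold change of 0.20 (95% interval -0.24 to 0.65) that came to 0.07 without control 3.

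The acyl-CoA dehydrogenases take the first electron pair, each for a chain length. Acadsb, which acts on short branched chains from isoleucine, was the most abundant of the 5 and had 79.2, 69.3, 75.6, 90.5 and 84.9 CPM in nKO 1 to 5, against 63.8, 70.9, 86.9, 82.3 and 80.2 CPM in control 1 to 5. Its log2 fold change was 0.06 (SE 0.10). Acadvl, the very-long-chain enzyme of the inner membrane, had 37.8, 32.7, 40.1, 30.7 and 33.0 CPM in nKO 1 to 5, against 37.5, 37.0, 42.3, 38.9 and 36.1 CPM in control 1 to 5. In 3 of 5 nKO libraries it lay below every control in CPM, and in 1 of 5 in TPM. The log2 fold change was -0.14 (SE 0.09; edgeR adjusted p = 0.841). The long-chain enzyme Acadl stood at -0.13 (SE 0.10) and the short-chain enzyme Acads at -0.13 (SE 0.23), where Acads had only 36.2 to 80.5 reads per library. The medium-chain enzyme Acadm went the other way in value, at 0.08 (SE 0.09). In this fit the class had 3 genes below 0 and 2 above, all with overlapping groups, but 2 of the signs did not hold. Acads came to 0.08 without control 1, its highest library, and to 0.17 without control 1 and nKO 4, and its mean TPM was higher in nKO. Acadsb came to -0.0032 without control 1 and to -0.06 without control 1 and nKO 4.

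The enzymes of hydration, the later dehydrogenation and thiolysis were lower in all 5 members, with log2 fold changes from -0.41 to -0.09. Acaa2 (NCBI gene 52538), the mitochondrial 3-ketoacyl-CoA thiolase that removes acetyl-CoA at the end of each turn, had 14.3, 11.7, 12.3, 10.5 and 12.7 CPM in nKO 1 to 5, against 18.1, 13.6, 17.1, 14.6 and 18.4 CPM in control 1 to 5. In 4 of 5 nKO libraries it lay below every control library, and nKO 1 lay above control 2. It stood at 75.2% of the control level (log2 fold change -0.41, SE 0.12, 95% interval -0.67 to -0.16). The unadjusted p was 0.00394 and the edgeR adjusted p 0.820, so the difference did not pass the test over all genes. Echs1 (NCBI gene 93747; mm10 chromosome 7, 140105710 to 140116421), the short-chain enoyl-CoA hydratase, which also serves valine breakdown, had 34.8, 32.4, 35.0, 28.5 and 34.3 CPM in nKO 1 to 5, against 34.1, 33.5, 44.1, 40.1 and 38.5 CPM in control 1 to 5. Its nKO libraries overlapped the 2 lowest controls (log2 fold change -0.21, SE 0.10, edgeR adjusted p = 0.820). The unadjusted p of 0.0486 was no longer under 0.05 when any 1 of control 3, 4 or 5 or nKO 1, 2, 3, 4 or 5 was left out.

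The trifunctional protein of the inner membrane does these steps for long chains. Its beta subunit Hadhb had 75.7, 73.1, 83.5, 89.3 and 96.7 CPM in nKO 1 to 5, against 81.0, 93.4, 99.9, 92.6 and 84.8 CPM in control 1 to 5. The groups overlapped (log2 fold change -0.11, SE 0.09). Its alpha subunit Hadha, the most precisely measured member, had 56.8, 59.2, 57.6, 57.6 and 60.9 CPM in nKO 1 to 5, against 59.9, 64.3, 64.6, 60.5 and 62.3 CPM in control 1 to 5. In 4 of 5 nKO libraries it lay below every control in CPM, yet the difference was small (log2 fold change -0.09, SE 0.06). In TPM control 1 (53.3) lay below every nKO library (56.0 to 59.8). The ratio of Hadha to Hadhb was 0.538 ± 0.044 in nKO and 0.519 ± 0.022 in control (SD, n = 5 each, TPM). Hadh, which acts on short and medium chains, stood at -0.15 (SE 0.11), and at -0.07 without control 1, its highest library.

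**Figure D4:**
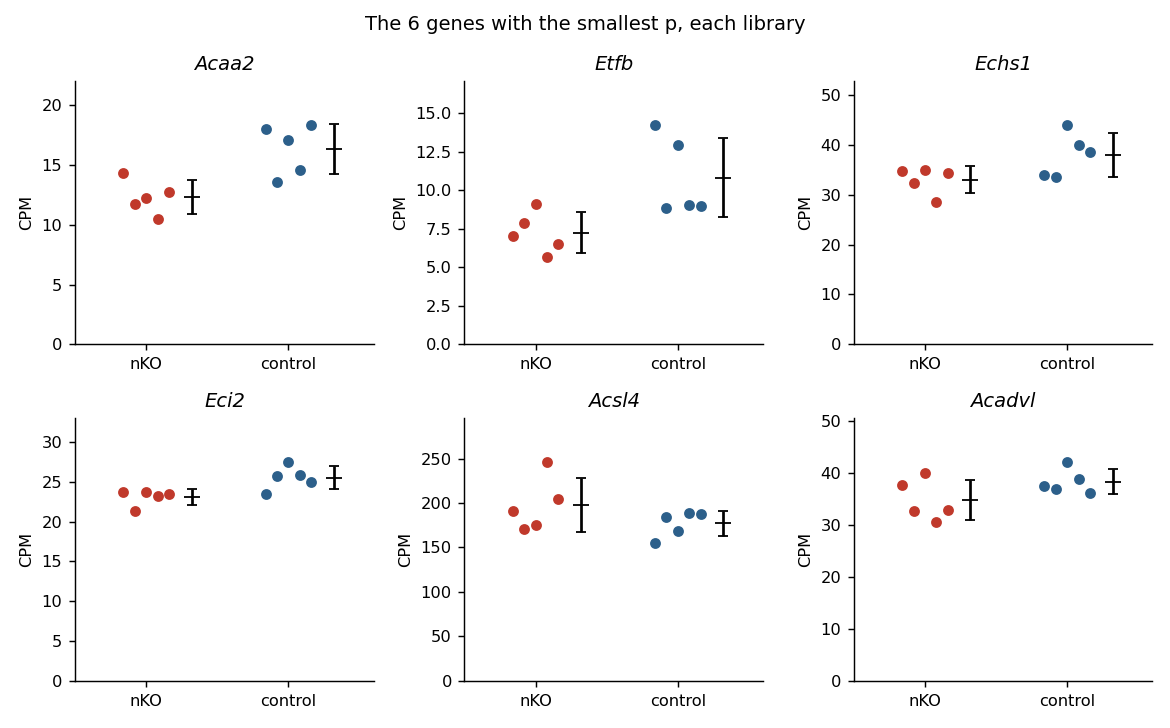
CPM of the 6 genes with the smallest p in each of 5 nKO and 5 control libraries, with mean and SD beside the points; each axis starts at 0. Acaa2 averaged 12.3 CPM in nKO and 16.4 CPM in control, Etfb 7.24 CPM in nKO and 10.8 CPM in control, and in all 6 genes at least 1 nKO library lies within the control range.

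Unsaturated fatty acids need 3 auxiliary enzymes, and all 3 lay below 0. The isomerase Eci2 had 23.7, 21.4, 23.7, 23.3 and 23.5 CPM in nKO 1 to 5, against 23.5, 25.7, 27.5, 25.9 and 24.96 CPM in control 1 to 5. Apart from nKO 2, which was lower, the nKO libraries were tightly grouped. Of the controls, the nKO libraries overlapped control 1 alone (log2 fold change -0.14, SE 0.08, 95% interval -0.31 to 0.02). The isomerase Eci1 stood at -0.08 (SE 0.10) and the dienoyl-CoA reductase Decr1 at -0.12 (SE 0.12). Decr1 came to -0.03 without control 3, its highest library, and to -0.27 without control 1 and nKO 4.

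The electron transfer flavoprotein is a heterodimer of the products of Etfa and Etfb, and its electrons go to ubiquinone through Etfdh. Etfb (NCBI gene 110826; mm10 chromosome 7, 43444072 to 43457800) had the largest difference of the 30 genes. It had 7.01, 7.87, 9.14, 5.68 and 6.50 CPM in nKO 1 to 5, against 14.3, 8.87, 13.0, 9.07 and 8.95 CPM in control 1 to 5. In 4 of 5 nKO libraries it lay below every control, and nKO 3 lay above controls 2, 4 and 5. It stood at 66.9% of the control level (log2 fold change -0.58, SE 0.17, 95% interval -0.96 to -0.20). The unadjusted p was 0.00540 and the edgeR adjusted p 0.820. Controls 1 and 3 were the high libraries. Leaving out 1 library gave log2 fold changes from -0.69 to -0.47, and leaving out control 1 and nKO 4 together gave -0.40.

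Its partner Etfa had 23.7, 20.6, 22.4, 24.6 and 23.1 CPM in nKO 1 to 5, against 21.3, 21.2, 28.2, 22.2 and 20.1 CPM in control 1 to 5. The groups overlapped, with a log2 fold change of 0.02 (SE 0.10, 95% interval -0.21 to 0.24). Etfdh stood at -0.01 (SE 0.08). Per length, the ratio of Etfb to Etfa was 0.549, 0.679, 0.735, 0.591 and 0.593 in nKO 1 to 5, against 1.04, 0.842, 0.946, 0.785 and 0.825 in control 1 to 5. The ratio of every nKO library was below that of every control library. Of 6 ratios of partner genes computed, this was the 1 without overlap; it was looked at after the values of Etfb were seen and is a description without a test. Etfb has a short transcript of 904 bases and 94.5 to 316 reads per library, and Etfa one of 1464 bases and 338 to 689 reads.

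**Figure D5:**
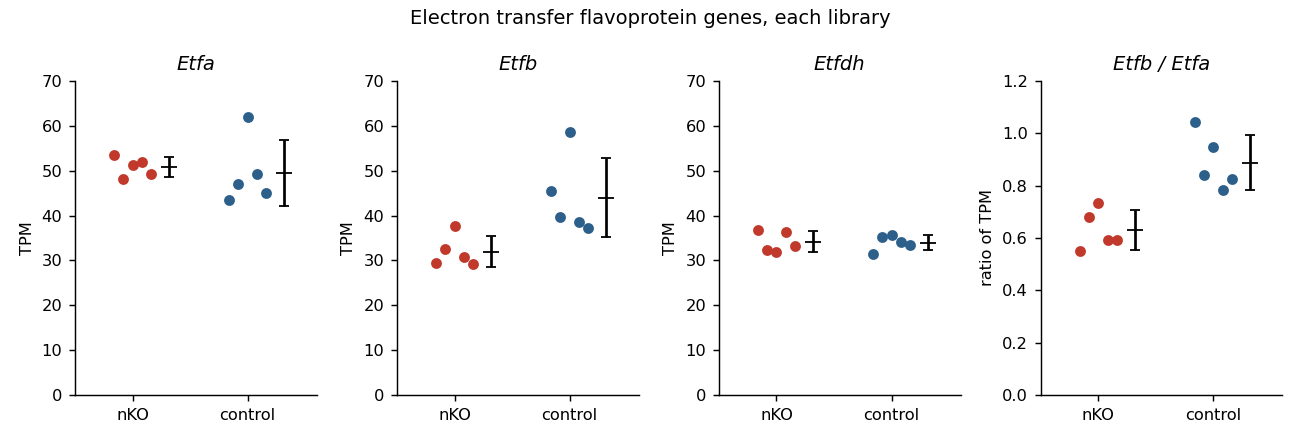
TPM of Etfa, Etfb and Etfdh and the ratio of Etfb to Etfa in each of 5 nKO and 5 control libraries, with mean and SD beside the points; each axis starts at 0. The ratio lies between 0.549 and 0.735 in nKO and between 0.785 and 1.04 in control libraries, while the TPM of Etfa and Etfdh overlaps between genotypes.

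The promoters of these 3 genes are shown because Etfb lay apart from its partners in value. Each window runs from 250 bases before to 50 bases after the annotated start (RefSeq, GRCm38.p6, the assembly of mm10), written in the direction of the gene. Capitals mark matches to the core recognised by NRF1, a regulator of respiratory chain genes: GCGC, then any base, then TGCGC, searched on both strands.
Etfb, chr7:43443822-43444121, plus strand: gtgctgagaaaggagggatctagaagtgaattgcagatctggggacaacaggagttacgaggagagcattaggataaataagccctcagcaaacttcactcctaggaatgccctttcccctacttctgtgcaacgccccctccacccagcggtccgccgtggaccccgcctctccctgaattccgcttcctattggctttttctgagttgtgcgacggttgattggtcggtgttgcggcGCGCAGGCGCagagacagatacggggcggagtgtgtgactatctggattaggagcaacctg
Etfa, chr9:55512194-55512493, minus strand: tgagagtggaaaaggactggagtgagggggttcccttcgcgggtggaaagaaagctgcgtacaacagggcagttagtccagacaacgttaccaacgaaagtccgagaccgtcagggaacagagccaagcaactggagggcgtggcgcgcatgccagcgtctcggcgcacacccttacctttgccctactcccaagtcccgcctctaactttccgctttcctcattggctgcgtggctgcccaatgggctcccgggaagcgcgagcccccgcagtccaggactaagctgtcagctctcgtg
Etfdh, chr3:79628718-79629017, minus strand: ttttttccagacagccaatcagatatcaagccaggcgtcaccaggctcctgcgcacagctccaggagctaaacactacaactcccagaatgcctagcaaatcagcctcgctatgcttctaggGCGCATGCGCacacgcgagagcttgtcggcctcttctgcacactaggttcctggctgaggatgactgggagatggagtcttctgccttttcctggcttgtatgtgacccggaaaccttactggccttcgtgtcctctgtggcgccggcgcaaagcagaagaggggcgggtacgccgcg
Etfb held 1 match, read on the strand opposite to the gene and beginning 11 bases before the start, and Etfdh 1 match, beginning 128 bases before it; Etfa held 0. Of all 32851 promoter windows 4.60% held this motif, against 2 of 30 windows of the 26 members with an entry. The estrogen-related receptor site AAGGTCA was found on either strand in 2 of the 30 windows (Acadm and Acsl6) and in 4.72% of all windows. The PPAR element, AGGTCA and any base followed by AGGTCA, can overlap AAGGTCA where that base is A, and was found on either strand in 0 of the 30 windows and in 0.0396% of all. These matches describe letters in a window and say nothing of binding.

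Ketone bodies enter oxidation through 3 enzymes. Oxct1 (NCBI gene 67041; mm10 chromosome 15, 4026428 to 4155344), the rate-limiting transferase that activates acetoacetate, had 423, 436, 416, 489 and 447 CPM in nKO 1 to 5, against 388, 498, 538, 480 and 453 CPM in control 1 to 5. Control 1 was the lowest library and control 3 the highest, so the nKO libraries lay inside the control range (log2 fold change -0.09, SE 0.09, 95% interval -0.28 to 0.09). The low end of that range rested on control 1. The next control stood at 453 CPM, above every nKO library except that with 489 CPM. With 1 library left out, the log2 fold change of Oxct1 ran from -0.15 to -0.04. It came to -0.20 without the libraries at the opposite extremes of the first principal component axis. In that fit its unadjusted edgeR p was under 0.05, but no member passed 5% after adjustment. Acat1, the thiolase that splits acetoacetyl-CoA and also closes isoleucine breakdown, had 96.9, 102, 96.3, 106 and 96.6 CPM in nKO 1 to 5, against 94.6, 104, 114, 102 and 105 CPM in control 1 to 5. Its log2 fold change was -0.06 (SE 0.07). Bdh1, which converts beta-hydroxybutyrate to acetoacetate at the inner membrane, had 42.8, 45.4, 43.0, 38.6 and 37.1 CPM in nKO 1 to 5, against 50.9, 39.1, 42.0, 44.8 and 42.7 CPM in control 1 to 5. Its log2 fold change was -0.09 (SE 0.09). All 3 genes lay slightly below 0, and their 95% intervals ran from -0.28 to 0.11 at the widest.

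The acyl-CoA thioesterases hydrolyse acyl-CoA and so set free the fatty acid and the coenzyme. Acot7, the main brain enzyme of the cytosol, had 101, 111, 102, 78.1 and 99.6 CPM in nKO 1 to 5, against 152, 105, 88.6, 106 and 103 CPM in control 1 to 5. In CPM control 1 stood far above all other libraries and nKO 4 below them. Without both, the log2 fold change of -0.17 (SE 0.13) became 0.03. In TPM control 1 (278) was close to control 2 (276) and nKO 2 (271), and control 3 (236) was the lowest library. Acot13, a small mitochondria-associated thioesterase, stood at -0.12 (SE 0.08). Acot2, a mitochondrial matrix thioesterase, stood at -0.15 (SE 0.12), but its reads can be shared with the closely similar neighbouring gene Acot1, which stood at -0.20 (SE 0.15), so the split between these genes is uncertain.

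The transcript tables were read for the same genes. They list 48 RefSeq transcripts for the 30 members, 1 each for 20 members and several for the other 10, and 42 passed the count filter. In edgeR over all 22343 tested transcripts 0 of these 42 passed 5% (and 0% of all transcripts did), and 2 had an unadjusted p under 0.05 (4.76%, against 3.6% of all), the single transcripts of Acaa2 and Etfb that carry reads. Of the 42, 29 were lower and 13 higher in nKO, against 52.3% of all tested transcripts lower. The transcript and gene tables count the same reads.

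Several members split their output between isoforms. Acsl6 divided among 4 transcripts: NM_144823 held 42.1% ± 8.25 of its TPM in nKO and 40.0% ± 3.29 in control, and NM_001033599 held 31.996% ± 0.79 in nKO and 37.8% ± 5.07 in control (SD, n = 5 each). The share of NM_001033599 was 31.2% to 32.9% in nKO and 32.8% to 44.0% in control libraries, with the ranges meeting at their edge, and the transcript itself had a log2 fold change of -0.22 (SE 0.11). Acsl3 divided between NM_001033606, with 53.2% ± 4.07 in nKO and 57.9% ± 3.64 in control, and NM_028817, with 46.7% ± 4.15 in nKO and 42.0% ± 3.98 in control. Cpt1c was carried by NM_153679, with 84.6% ± 10.4 in nKO and 85.8% ± 5.72 in control, and Hadhb by NM_145558, with 81.5% ± 5.50 in nKO and 78.2% ± 2.22 in control. Salmon divides reads that match several isoforms between them, and the error of that division is not part of these values.

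Other genes of lipid metabolism were read from the same fit. In 8 further lists, 107 different genes could be tested, of which 67 were lower and 40 higher, against 52.2% of all tested genes below 0. Of the 107, 0 passed 5% and 8 (7.48%, against 5.65% of all tested genes) had an unadjusted p under 0.05. The part of transcript length in the direction of these lists was not tested. Mitochondrial breakdown of branched and other acyl-CoA had 16 of 20 genes lower (median log2 fold change -0.07), with the propionyl-CoA carboxylase subunit Pccb at -0.18 (SE 0.07), Hint2 at -0.31 (SE 0.12) and the methylcrotonyl-CoA carboxylase subunit Mccc2 at -0.27 (SE 0.11). Peroxisomal oxidation had 12 of 15 tested genes lower (median -0.08), with the peroxisomal thiolase Acaa1a at -0.44 (SE 0.20), Amacr at -0.23 (SE 0.11) and Pecr at -0.36 (SE 0.20). Acaa1a came to -0.22 without control 1 and to -0.12 without control 1 and nKO 4. Carnitine handling had 5 of 7 lower (median -0.02), with the carnitine-acylcarnitine carrier Slc25a20 at -0.16 (SE 0.09). Other thioesterases had 7 of 9 lower (median -0.08), and fatty acid uptake and binding 7 of 12 (median -0.11).

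Ketone synthesis and transport had 7 of 10 tested genes lower (median log2 fold change -0.11). The cytosolic dehydrogenase Bdh2 stood at -0.50 (SE 0.26) with few reads, and the acetoacetyl-CoA synthetase Aacs at -0.25 (SE 0.15). Aacs came to -0.13 without control 1 and to -0.05 without control 1 and nKO 4.

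The balance of higher and lower genes in the PPAR and fatty acid synthesis lists depended on the scaling. Among PPAR and PGC1 regulators and classical PPAR targets 9 of 15 tested genes stood above 0 and 6 below it (median 0.01 on the log2 scale), but 8 were lower with DESeq2 size factors, with library size alone and with effective length offsets. Ppara, the receptor that induces beta-oxidation genes, had 7.50 to 9.97 CPM in nKO and 6.11 to 7.79 CPM in control libraries, which overlap slightly (0.27, SE 0.12, unadjusted p = 0.0406). Ucp2 stood at 0.37 (SE 0.20), and at 0.24 without nKO 3. In fatty acid synthesis and elongation 8 of 20 genes were lower and 12 higher (median 0.02), but 10 were lower with library size alone. Hsd17b12, the ketoacyl-CoA reductase of fatty acid elongation, had 50.8 to 59.8 CPM in nKO and 37.5 to 49.5 CPM in control libraries, without overlap (log2 fold change 0.40, SE 0.09). Its unadjusted p was 0.000460 and its edgeR adjusted p 0.820. The desaturase Scd2 stood at 0.31 (SE 0.13), or 0.19 without control 3, and the elongase Elovl1 at 0.26 (SE 0.12). None of these passed the test over all genes.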

How the data were processed

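Total RNA of 10 mouse cortices (5 nKO, 5 control) was made into stranded libraries, with 6 minutes of fragmentation in the labels' protocols. Of the tools, the submitters' processing notes list Salmon, DESeq2 and bcl2fastq, and mm10 as the build; versions and the annotation release are not given in the sources used here. Per the file headers, the authors deposited estimated counts of reads per gene and per transcript, which are not whole, and TPM, which is scaled by effective length. Member gene counts and the sums over their transcripts differed by at most 0.019 reads. A deposited table of scores held no member and was not used here.

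Estimated counts were rounded. Genes passed filterByExpr at a minimum count of 10 and a minimum total of 15, and TMM scaling gave CPM. Genotypes were compared by robust quasi-likelihood fits in edgeR 4.0.16 (R 4.3.3). P-values were adjusted by Benjamini-Hochberg across 14378 genes, or 22343 transcripts. Mean log2 CPM used a prior count of 2. Alternatives covered DESeq2 1.42.0, limma 3.58.1, scaling, filters, effective length offsets and omitted libraries. The scripts were tested on simulated data with 200 changed genes. Promoters came from RefSeq, GRCm38.p6.

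Members and lists were chosen with earlier results of these data known. Values per library are given for the top gene of each role by TPM, the 6 members with the smallest p, Cpt1a, Cpt1c and the ketone enzymes, and each further list names up to 3 genes by smallest p. Hadha, Etfdh and Slc1a2 were added with their values in view. The labels give no batch or pairing, and replicate numbers only name libraries.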

Additional observations from a re-analysis of the deposited data

Results flagged for a closer look

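In each genotype the 5 libraries of every member were examined for a library standing far from the other 4, which chance alone gives in about 1 of 20 groups. It was found in 4 of 60 groups. Eci2 had 21.4 CPM in nKO 2, against 23.3 to 23.7 CPM in the other nKO libraries. Hadh had 18.5 CPM in control 1, against 13.5 to 14.8 CPM in the other controls. Acot7 had 152 CPM in control 1, against 88.6 to 106 CPM in the other controls. In TPM Acot7 had 278 in control 1, against 236 to 276 in the other controls. Etfa had 28.2 CPM in control 3, against 20.1 to 22.2 CPM in the other controls.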

How the results depend on the processing

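Under 20 alternatives of scaling, filter, tool, length offset and libraries, 0 members passed 5%, and 0 member transcripts did so in 16 alternatives. The direction held throughout for 21 members, among them Etfb, Acaa2 and Echs1. All genes called numbered 2, and 5 with the DESeq2 Wald test, with 2 to 3 when 1 library was left out. Members lower in nKO numbered 20 to 25 with 1 library left out, and their median log2 fold change was -0.10 to -0.07. Members at an unadjusted p under 0.05 numbered 2 to 3 with 1 library left out (3.73% to 6.76% of all genes). They numbered 5 with effective length offsets (9.7% of all genes) and 7 without control 1 and nKO 4 (9.12% of all genes). Signs turned for 9 members and for Mlycd. Effective length offsets gave -0.00937 for Acsl3 and -0.0131 for Etfa. Without control 1 and nKO 4, log2 fold changes were -0.0775 for Acsl3, 0.0111 for Cpt1c, 0.167 for Acads, -0.0614 for Acadsb, -0.0430 for Etfa, 0.0299 for Acot7 and 0.0468 for Mlycd. With 1 library left out they ran from -0.0429 to 0.0596 for Acsl3, -0.273 to 0.0785 for Acads, -0.00319 to 0.105 for Acadsb, -0.0227 to 0.112 for Etfa, -0.0207 to 0.0530 for Acsl6, -0.0462 to 0.0162 for Cpt1a and -0.0537 to 0.00920 for Etfdh. The cause of these turns was not tested. No paired analysis was possible because the labels number the 10 libraries singly and mark no pairs; 1 to 5 within a genotype only follows the order of listing. Without 1 library, 22 of 30 members came closer to 0 by over 1.5 times or turned, 9 of them most without control 1. Depth limits Acads and Cpt2 the most.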
